A study of Mus musculus with 23 samples.

Results

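The genes described here encode the receptor-holding and signalling core of the excitatory synapse, together with the adhesion proteins that bridge its cleft. They were chosen by name as 32 genes of 39017 in each deposited table: 4 membrane-associated guanylate kinase scaffolds (Dlg1 to Dlg4), 4 SAPAP linkers (Dlgap1 to Dlgap4), 3 Shank scaffolds, the Homer adaptors Homer2 and Homer3, 4 subunits of the calcium/calmodulin kinase CaMKII, 3 neuroligins, 2 neurexins (Nrxn2 and Nrxn3), 3 LRRTM adhesion proteins, 3 phosphatase subunits or anchors (Ppp1r9b, Ppp3ca and Ppp3cb) and 4 exchange factors or actin regulators (Iqsec1, Iqsec2, Kalrn and Cyfip2). All 32 were found in both tables. RNA came from mouse hippocampi of wild-type (WT) animals and of animals labelled as knockout for Nrsn2, the gene of neurensin-2, a small membrane protein of neuronal vesicles. Each genotype label was split into control animals and animals taken after CSDS. This is repeated social defeat: a mouse met an unfamiliar aggressive CD-1 mouse for 5 min a day on 10 days and lived behind a perforated divider beside it in between (CSDS stands for chronic social defeat stress). Each of the 4 groups held 5 libraries: WT control, WT CSDS, control labelled knockout and CSDS labelled knockout. The sources used here give neither the age, sex and strain of the animals nor the kind of Nrsn2 allele.

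At an excitatory synapse, Dlg proteins such as PSD-95 (Dlg4) hold glutamate receptors and adhesion proteins at the membrane. SAPAP proteins link them to Shank and Homer scaffolds deeper in the postsynaptic density. CaMKII is the abundant kinase that calcium entry activates there and that strengthens synapses in the hippocampus, while calcineurin (Ppp3ca and Ppp3cb encode its catalytic subunits) and protein phosphatase 1, anchored by spinophilin (Ppp1r9b), act against it. Presynaptic neurexins bind neuroligins and LRRTM proteins across the cleft, and kalirin, the IQSEC proteins and CYFIP2 set small GTPases and actin in the spine.

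The estimated depth of the 20 libraries was 25.7 to 55.7 M reads, with a median of 45.4 M. Nrsn2 itself was not lower in the libraries labelled knockout: its RPKM was 25.3 to 31.5 in WT controls, 27.3 to 33.25 in WT CSDS, 28.0 to 33.1 in controls labelled knockout and 31.98 to 37.4 in CSDS libraries labelled knockout, a log2 difference of 0.15 (permutation test with 100000 resamples, two-sided p = 0.0083). The genotype is therefore named here as a label, and each direction drawn between genotypes rests on that label. Control 10 of each genotype carried Xist at 48.2 to 56.5 RPKM and Ddx3y at 0.163 to 0.499, while the other 18 libraries had Xist at 0.0618 or less and Ddx3y at 9.66 to 13.0, so 1 of 5 controls of each genotype and no CSDS library had a female pattern. Another 3 libraries, titled as controls but given CSDS in their treatment field, were left out. Hippocampal markers were present in all groups: the summed RPKM of 6 dentate granule genes was 43.0 to 68.6 over the 20 libraries and that of 5 CA1 pyramidal genes 104 to 139. None of these genes had a mean under 0.5 RPKM over the 20 libraries.

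All members were expressed, over a wide range of levels. RPKM is the read number scaled to gene length and library size, so a comparison between genes, and each family share, depends on the length used. That length is not given. For Camk2d all GENCODE vM21 exons together hold 22493 bases and the longest transcript 5524. On the deposited scale Camk2a was the most abundant member with 458 ± 27.0 RPKM in WT controls (SD, n = 5), rank 67 of 18274 genes tested. Ppp3ca followed with 241 ± 16.1, then Ppp1r9b with 167.5 ± 11.75, Cyfip2 with 118 ± 2.40 (SD, n = 5 each). Cyfip2, Camk2b (110.2 ± 8.60) and Dlg4 (99.05 ± 5.09) lay within the spread of their neighbours in this order (SD, n = 5 each). The next member, Shank1, stood at 46.6 ± 1.48. The least abundant were Dlgap2 with 8.66 ± 0.473, Lrrtm4 with 4.78 ± 0.334 and Camk2d, the CaMKII delta subunit best known from heart, with 3.61 ± 0.613 (SD, n = 5 each). Within the Shank family Shank1 made up 52.1% ± 0.593 of the summed RPKM, Shank3 29.0% ± 0.949 and Shank2 18.9% ± 0.616 in WT controls (SD, n = 5). Camk2a gave 74.4% ± 1.10 of the CaMKII sum and Camk2b 17.9% ± 0.868 (SD, n = 5). Around their group means the members varied with a median residual SD of 0.077 on the log2 scale, against 0.0854 for all genes tested and 0.0701 for the 11477 genes within their range of level. Lrrtm1 had the smallest residual SD, 0.0415.

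**Figure D1:**
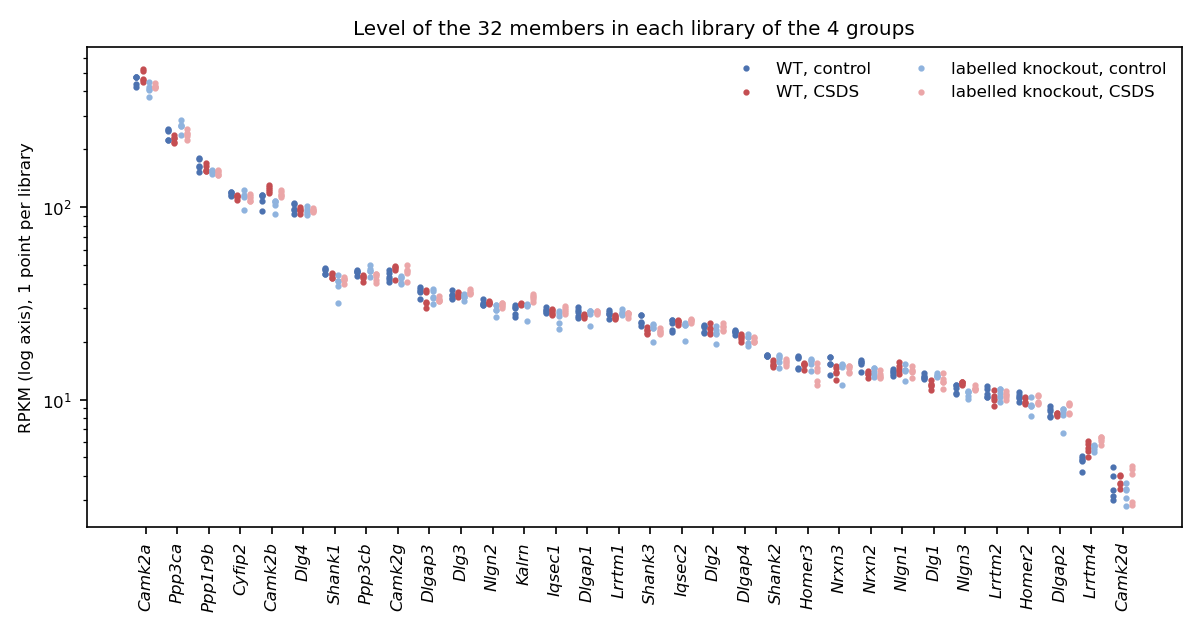
RPKM of each of the 32 members (log axis) in the 20 libraries, 1 point per library, coloured by group and ordered by the mean in WT controls. Camk2a, at 458 RPKM, and Camk2d, at 3.61 RPKM, mark the ends of the range, and the 4 groups of each gene lie close together.

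The first question was how CSDS changed these genes in WT hippocampus. On the log2(RPKM + 0.5) scale, 8 of the 32 members changed in WT (limma, Benjamini-Hochberg adjusted p under 0.05 over 18274 genes): Camk2b and Lrrtm4 rose, and Dlg1, Dlgap4, Shank2, Shank3, Nrxn2 and Ppp3cb fell. Over all genes tested the call rate was 22.4%, with 9.88% called higher and 12.5% called lower, so the members' 25.0% was close to that of the whole tissue. The changes were small: the largest, Lrrtm4, was a rise of 16.9% in mean RPKM, and the members' median log2 difference was -0.05 against 0.00 for all genes (-0.0017). Of the 32 members, 21 (65.6%) had a negative difference, against 50.4% of all genes tested. When the WT library of conflicting label counted as CSDS, Nrxn2 was the 1 member still called. The adjusted p of the other 7 was then 0.0681 to 0.211 (limma). When that library counted as control, the same 8 members were called. For these label settings the call rate over all genes is not given here. In bulk tissue, fewer cells of a type and less RNA per cell cannot be told apart. The labels do not tie each library to its own animal. The p-values therefore reflect only the spread among these samples, and that spread may be technical.

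In libraries labelled knockout, CSDS left 3 members changed, all higher: Camk2b, Lrrtm4 and Kalrn (limma, adjusted p under 0.05 over 18259 genes). The call rate over all genes was 15.0%, with 6.17% higher and 8.88% lower. Camk2b and Lrrtm4 were the 2 members called under both genotype labels, of 9 called under either. The members' median log2 difference was 0.02 under that label, where 14 of 32 members (43.8%) had a negative value, against 52.3% of all genes. The largest difference of any member was 0.18 on the log2 scale, for Camk2b. The number of members called rose from 3 to 5 without control 10 of this genotype, with Ppp3ca and Ppp3cb added as lower. It fell to 0 when the conflicting libraries of this label counted as CSDS. When they counted as control it was 4, with Dlg3 added as higher. For these alternatives the call rate over all genes is not given here.

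Counted another way, all 5 CSDS libraries lay above or below all 5 controls for 6 members in WT, where 17.1% of all genes did so: Camk2b, Nlgn3 and Kalrn above, and Dlg1, Shank2 and Shank3 below. With the knockout label this held for 5 members, Camk2b, Nlgn3, Lrrtm4, Iqsec2 and Kalrn, all above, against 12.9% of all genes.

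**Figure D2:**
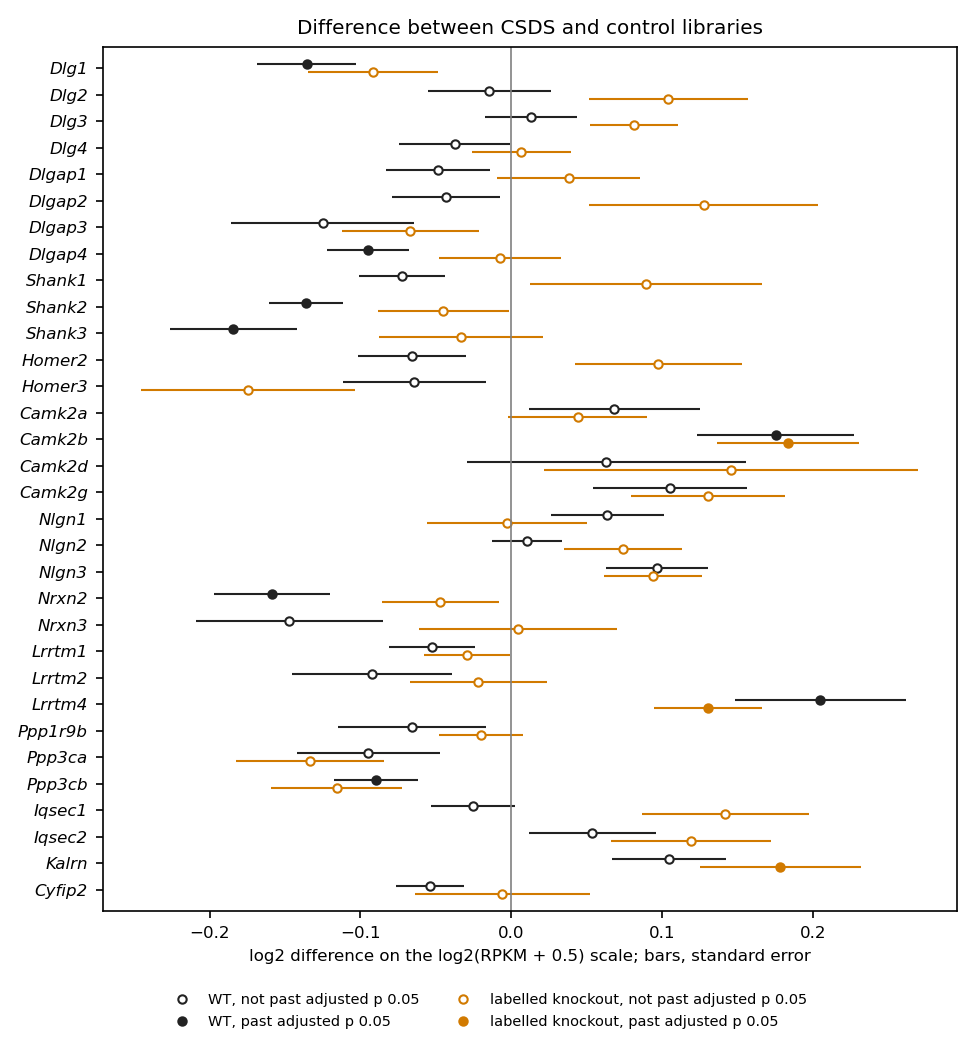
Log2 difference between CSDS and control libraries on the log2(RPKM + 0.5) scale for the 32 members in WT (black) and in libraries labelled knockout (orange), with standard errors. Filled points passed adjusted p 0.05: 8 members in WT and 3 with the knockout label, of which Camk2b and Lrrtm4 are filled in both.

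The start regions of the members that moved are shown to place them in the genome, because Camk2b and Lrrtm4 were the members that rose under both labels and Dlg1 and Shank3 were among those whose WT groups did not overlap. The RefSeq promoter table (GRCm38.p6) held 23 of the 32 members, with 39 start sites. The 250 bases before the listed start nearest to the gene's 5′ edge are given in the gene's own direction, for Camk2b at chr11:6065749-6065998 (minus strand), Lrrtm4 at chr6:80018627-80018876 (plus strand), Dlg1 at chr16:31663193-31663442 (plus strand) and Shank3 at chr15:89499358-89499607 (plus strand). The Camk2b start lay 614 bases inside the deposited gene's edge and that of Shank3 15 bases before it. Capitals mark matches on either strand to a GC box (GGGCGG), an E-box (CACGTG), a cAMP response element (TGACGTCA) or a TATA box (TATAAA), with overlapping matches counted separately.
Camk2b: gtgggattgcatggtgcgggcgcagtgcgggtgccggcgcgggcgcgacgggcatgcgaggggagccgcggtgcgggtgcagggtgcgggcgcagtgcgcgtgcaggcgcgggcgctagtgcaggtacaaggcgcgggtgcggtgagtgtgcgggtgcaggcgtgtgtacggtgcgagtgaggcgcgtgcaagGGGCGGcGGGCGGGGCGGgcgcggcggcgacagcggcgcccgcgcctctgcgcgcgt
Lrrtm4: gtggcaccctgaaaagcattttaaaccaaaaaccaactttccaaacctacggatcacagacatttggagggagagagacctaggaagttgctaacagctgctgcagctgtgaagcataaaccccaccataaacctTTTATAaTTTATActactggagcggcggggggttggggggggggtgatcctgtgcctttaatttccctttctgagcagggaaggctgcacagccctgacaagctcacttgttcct
Dlg1: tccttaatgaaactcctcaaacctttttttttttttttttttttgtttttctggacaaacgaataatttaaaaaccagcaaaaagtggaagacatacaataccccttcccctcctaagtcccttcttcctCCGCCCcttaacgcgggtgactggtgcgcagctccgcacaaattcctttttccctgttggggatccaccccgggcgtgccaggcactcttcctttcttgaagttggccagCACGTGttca
Shank3: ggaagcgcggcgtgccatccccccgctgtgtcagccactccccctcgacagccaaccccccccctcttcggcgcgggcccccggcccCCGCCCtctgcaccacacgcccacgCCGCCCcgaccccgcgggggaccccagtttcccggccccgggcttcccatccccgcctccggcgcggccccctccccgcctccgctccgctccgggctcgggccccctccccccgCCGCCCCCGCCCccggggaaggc
The windows differed in composition: G and C made up 78.4% of the Camk2b window and 82.4% of the Shank3 window, but 49.2% for Lrrtm4 and 46.0% for Dlg1, against a median of 52.4% over all 32851 windows of this length. Camk2b held 3 GC boxes, Shank3 4, Dlg1 1 GC box and 1 E-box, and Lrrtm4 2 TATA boxes. Among all windows 32.7% held a GC box, 6.02% an E-box, 1.55% a cAMP response element and 12.4% a TATA box. Of the 39 member windows, 15 held a GC box, 3 an E-box, 4 a TATA box and 0 a cAMP response element. A match is a description of letters and not a site in use.

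Of the CaMKII subunits, Camk2b rose under both labels. It encodes the beta subunit, which also binds actin in the spine, and lies on chromosome 11 at 5969644 to 6066362 (mm10). Its RPKM in WT controls 6 to 10 was 116, 96.0, 115, 116 and 108, and in WT CSDS libraries 1 to 5 it was 129.9, 124, 121, 119 and 127. Every CSDS library was above every control, and control 7 was the lowest. In controls labelled knockout it was 103, 108, 106, 108 and 91.8, with control 10 lowest, and in the CSDS libraries of that label 113, 115, 119.8, 116 and 123, again with no overlap. The log2 difference was 0.18 in WT (SE 0.05, limma adjusted p = 0.0361, 5 of 5 libraries above all controls) and 0.18 with the knockout label (SE 0.05, limma adjusted p = 0.0262). The call was lost in WT without control 10 or without CSDS 1, 2, 3 or 5 (adjusted p up to 0.0818), and with the knockout label without control 6 or CSDS 3, 4 or 5 (up to 0.0588); the difference stayed between 0.13 and 0.20 in all of these refits. It was also lost under both labels when all libraries were given the same distribution of values (quantile normalization), and in WT with no filter on low values.

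The alpha subunit Camk2a did not pass the test in either comparison, with log2 differences of 0.07 in WT and 0.04 with the knockout label (limma adjusted p = 0.416 and 0.566). The gamma subunit Camk2g had 0.11 and 0.13 (limma adjusted p = 0.163 and 0.111), and Camk2d 0.06 and 0.15 (limma adjusted p = 0.653 and 0.47). All 4 subunits thus had positive values under both labels, and Camk2b alone passed. The summed RPKM of the 4 was 564 to 642 in WT controls and 618 to 707 in WT CSDS, which overlapped, and 511 to 601 and 587 to 606 with the knockout label. As a ratio to Camk2a, Camk2b stood at 0.241 ± 0.015 in WT controls and 0.259 ± 0.0106 in WT CSDS, and at 0.25 ± 0.0102 and 0.2755 ± 0.011 with the knockout label (SD, n = 5 each).

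Of 14 CaMKII regulators and other calmodulin kinases, 2 rose and 3 fell in WT (35.7% called, against 22.4% of all genes), and 1 rose and 3 fell with the knockout label (28.6%, against 15.0%). Camk2n1, the gene of an inhibitor protein of CaMKII, fell by 0.21 in WT (SE 0.04, limma adjusted p = 0.0053) and by 0.16 with the knockout label (SE 0.04, limma adjusted p = 0.0243). Camkk1, a kinase that activates other calmodulin kinases, fell by 0.25 and 0.20 on the log2 scale (limma adjusted p = 0.00234 and 0.0244). Nrgn, the gene of the calmodulin-binding protein neurogranin, fell by 0.20 with the knockout label (limma adjusted p = 0.0137), and Camk1g rose there by 0.18 (adjusted p = 0.0205). In WT, Camkk2 fell by 0.15 (limma adjusted p = 0.013) and Camk4, a nuclear kinase, rose by 0.13 (adjusted p = 0.0335). The RPKM ratio of Camk2b to Camk2n1 was 0.766 to 0.955 in WT controls and 1.06 to 1.28 in WT CSDS, and 0.809 to 0.944 against 1.05 to 1.24 with the knockout label. Both genes were already called in opposite directions in these libraries, so the lack of overlap in their ratio is no separate evidence.

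Among the 8 adhesion members Lrrtm4 had the largest difference under both labels. It encodes a leucine-rich repeat protein of the postsynaptic membrane that binds heparan sulfate proteoglycans and is prominent in dentate granule cells, and lies on chromosome 6 at 80018877 to 80810143. Its RPKM was 5.09, 4.225, 4.83, 4.78 and 4.98 in WT controls 6 to 10 and 5.865, 5.57, 5.04, 5.40 and 6.07 in WT CSDS 1 to 5. The groups met only at CSDS 3, which lay below control 6. Controls labelled knockout had 5.71, 5.80, 5.33, 5.76 and 5.51 and the CSDS libraries of that label 6.40, 6.39, 5.83, 6.11 and 6.27, with no overlap. This was a log2 difference of 0.21 in WT (SE 0.06, limma adjusted p = 0.0272) and of 0.13 with the knockout label (SE 0.04, limma adjusted p = 0.0346), and the difference between these effects was -0.07 (SE 0.07, limma adjusted p = 0.718). The call was lost without control 7, control 9, CSDS 1 or CSDS 5 in WT (adjusted p up to 0.0638) and without control 6, 8 or 9 or CSDS 1, 2, 4 or 5 with the knockout label (up to 0.0813). With the knockout label it was also lost in a fit on all 4 groups. Under both labels it was lost when the conflicting libraries counted as CSDS. The antisense gene Gm4409 shares 1543 exon bases with Lrrtm4, and since this library kit does not keep the strand, reads of the pair cannot be told apart. Summed over 6 dentate granule markers, RPKM was 43.0 to 62.8 in WT controls and 52.2 to 60.7 in WT CSDS, and 58.45 to 68.6 and 53.4 to 68.1 with the knockout label. None of these 6 genes passed the test under either label, and the part of cell composition in the Lrrtm4 result was not tested.

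The relatives of Lrrtm4 did not pass: Lrrtm1 had -0.05 and -0.03, and Lrrtm2 -0.09 and -0.02, in WT and with the knockout label. Lrrtm4 made up 11.0% ± 0.837 of the LRRTM sum in WT controls and 13.1% ± 0.830 in WT CSDS (SD, n = 5 each).

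Of the neurexins, the presynaptic partners, Nrxn2 fell in WT. Its RPKM was 15.99, 15.6, 15.6, 15.3 and 13.9 in controls 6 to 10 and 13.55, 13.6, 13.9, 14.1 and 13.0 in CSDS 1 to 5. Control 10 lay within the CSDS range and the other 4 controls above it. CSDS minus control was -0.16 on the log2 scale in WT (SE 0.04, limma adjusted p = 0.0151) and -0.05 with the knockout label (limma adjusted p = 0.456). Controls labelled knockout had 13.0 to 14.5 RPKM, and their difference from WT controls did not pass (-0.13, limma adjusted p = 0.0564). The WT call held in all 10 refits without 1 library, with adjusted p at most 0.0364. Nrxn2 shares 682 exon bases with Slc22a12 and 207 with Gm14964, both on the opposite strand. Nrxn3 had -0.15 in WT (limma adjusted p = 0.115), and passed with an adjusted p of 0.0247 without control 10; with the knockout label it had 0.00 (0.004565 before rounding).

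The neuroligins, postsynaptic receptors for neurexins, did not pass under either label. Nlgn3 came nearest, with 0.10 in WT and 0.09 with the knockout label (limma adjusted p = 0.0647 and 0.0756). In WT its controls had 10.7 to 11.96 RPKM and its CSDS libraries 11.96 to 12.4 (the ends are equal at this rounding), and with the knockout label 10.0 to 11.1 and 11.2 to 11.9. Nlgn3 is X-linked, as are Dlg3 and Iqsec2, and shares 3823 exon bases with Gm21986 on its own strand. Nlgn1, found mainly at excitatory synapses, had 0.06 and 0.00 (-0.0027), and Nlgn2, found at inhibitory synapses, 0.01 and 0.07 in WT and with the knockout label.

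The wider adhesion list gave 2 higher and 12 lower of 45 tested in WT, and 1 higher and 1 lower with the knockout label. Mdga1, the gene of a protein that covers neuroligins and keeps neurexins from them, fell by 0.52 in WT (SE 0.05, limma adjusted p = 0.000289) and by 0.45 with the knockout label (SE 0.07, limma adjusted p = 0.00264). Slitrk2, a synapse-organizing receptor for presynaptic phosphatases, rose by 0.25 and 0.19 (limma adjusted p = 0.00724 and 0.0185). In WT, Igsf9b, an adhesion protein of inhibitory synapses, fell by 0.31 (limma adjusted p = 0.00931), and Elfn2, a postsynaptic partner of presynaptic glutamate receptors, by 0.28 (adjusted p = 0.000452).

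Of the scaffolds, 2 Shank genes, Dlg1 and Dlgap4 fell in WT and none passed with the knockout label. Shank2 had 16.9, 17.02, 17.05, 16.9 and 16.8 RPKM in WT controls 6 to 10 and 15.2, 15.7, 14.8, 16.04 and 15.1 in WT CSDS 1 to 5. The controls had an SD of 0.119 around their mean of 16.9, and every CSDS library was below them. Shank3 had 27.6, 25.4, 25.05, 27.6 and 24.1 in the controls and 22.3, 22.9, 23.8, 23.0 and 21.8 in the CSDS libraries, also without overlap. The log2 differences were -0.14 for Shank2 (SE 0.02, limma adjusted p = 0.00402) and -0.18 for Shank3 (SE 0.04, limma adjusted p = 0.0119), and both calls held in all 10 refits without 1 library. Both were lost when the WT library of conflicting label counted as CSDS (limma adjusted p = 0.126 and 0.127), and kept when it counted as control. Shank1 had -0.07 (limma adjusted p = 0.0921). The summed RPKM of the 3 Shank genes was 85.8 to 92.7 in WT controls and 80.0 to 84.3 in WT CSDS.

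With the knockout label Shank2 controls had 16.5, 15.7, 17.1, 16.8 and 14.6 RPKM and CSDS libraries 15.9, 15.3, 15.7, 16.3 and 14.9. Shank3 controls had 24.4, 23.5, 24.8, 23.6 and 19.8, and CSDS libraries 22.9, 21.8, 23.55, 22.3 and 22.7. For both genes control 10 was the lowest control, and the groups overlapped. Their log2 differences were -0.05 and -0.03 (limma adjusted p = 0.528 and 0.731). Without control 10 the Shank3 difference was -0.09 (limma adjusted p = 0.0521). The difference of the CSDS effects was 0.15 for Shank3 (SE 0.07, unadjusted p = 0.0481 and adjusted p = 0.433 by limma) and 0.09 for Shank2 (adjusted p = 0.513), so a difference between genotype labels was not shown. Shank3 shares 271 exon bases with Gm15609 on the opposite strand.

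**Figure D3:**
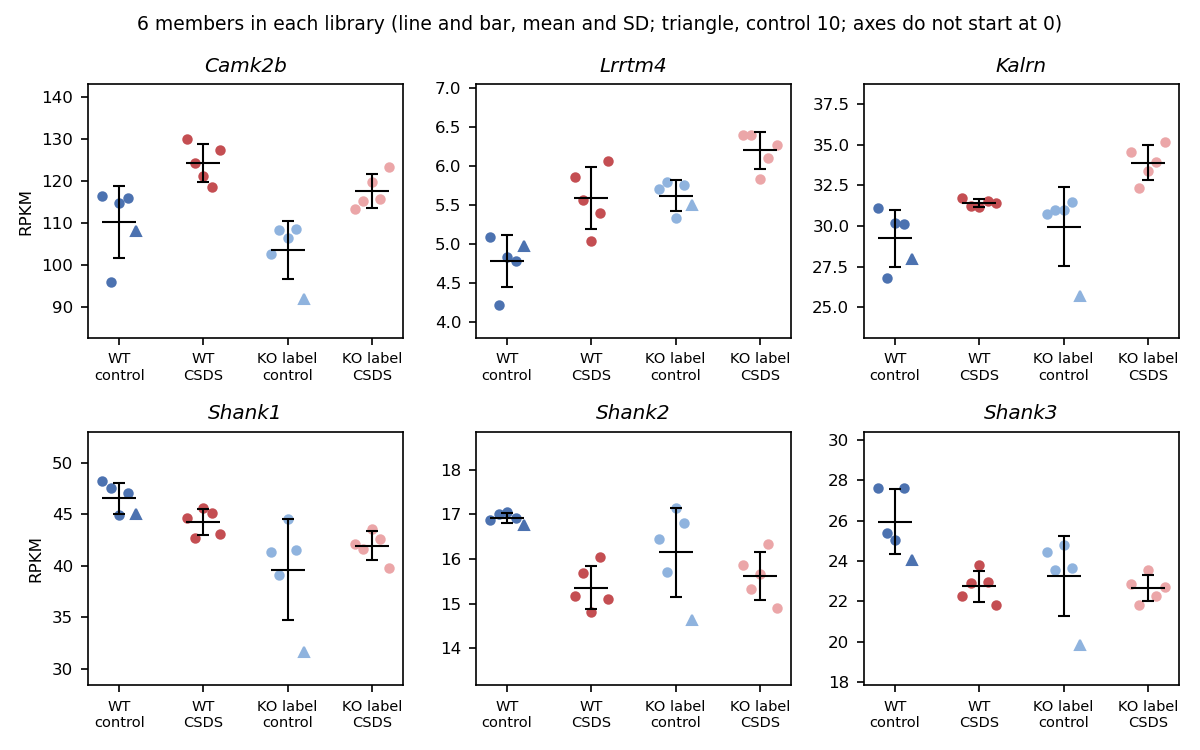
RPKM of Camk2b, Lrrtm4, Kalrn, Shank1, Shank2 and Shank3 in each of the 20 libraries by group, with the mean and SD (n = 5) and control 10 of each genotype as a triangle; the axes do not start at 0. Camk2b and Kalrn are higher in all CSDS libraries than in all controls of the same label, Shank2 and Shank3 are lower in WT CSDS, and control 10 labelled knockout is the lowest control of its group for 5 of the 6 genes.

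Dlg1 encodes SAP97, a scaffold involved in receptor delivery. Its RPKM was 13.1, 13.8, 13.0, 12.8 and 13.2 in WT controls and 11.8, 11.2, 11.97, 12.6 and 12.1 in WT CSDS. All CSDS libraries lay below all controls, with a log2 difference of -0.14 (SE 0.03, limma adjusted p = 0.0156) that passed in all 10 refits without 1 library. It did not pass when the WT library of conflicting label counted as CSDS (limma adjusted p = 0.0681), but did when that library counted as control. Controls labelled knockout had 13.0 to 13.7 and CSDS libraries of that label 11.4 to 13.8, a log2 difference of -0.09 (limma adjusted p = 0.178). Dlg4 (PSD-95) had -0.04 and 0.01, Dlg2 (PSD-93) -0.01 and 0.10, and Dlg3 (SAP102) 0.01 and 0.08, none of which passed.

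Dlgap4 had 22.9, 22.45, 22.6, 22.7 and 21.7 RPKM in WT controls and 21.2, 19.98, 21.85, 21.3 and 20.65 in WT CSDS, so that only control 10 and CSDS 3 overlapped. The log2 difference was -0.09 (-0.095, SE 0.03, limma adjusted p = 0.0314), and it passed in only 3 of 10 refits without 1 library, those without control 10, CSDS 3 or CSDS 4, with adjusted p up to 0.0699. The value was -0.01 with the knockout label. The other SAPAP genes and both Homer members did not pass: Dlgap3 had -0.125 and -0.07, and Homer3 -0.06 and -0.17, in WT and with the knockout label. The authors' deposited table lists Homer3 as lower with the knockout label (log2 fold change -0.16, false discovery rate 0.0324); Homer3 shares 874 exon bases with Ddx49 on the opposite strand.

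Homer1, whose short product is induced by activity and uncouples the long Homer proteins, is not one of the members; it fell under both labels. Its RPKM was 12.1 to 15.0 in WT controls and 6.67 to 8.47 in WT CSDS, and 10.4 to 12.45 against 6.95 to 7.65 with the knockout label. The log2 differences were -0.81 (SE 0.07, limma adjusted p = 0.000216) and -0.59 (SE 0.05, limma adjusted p = 0.000252). Arc, an activity-induced gene of the same synapses, fell by 0.45 in WT (limma adjusted p = 0.0106) and had -0.28 with the knockout label (adjusted p = 0.293). Of the 32 other scaffolds and signalling partners, Homer1 included, 1 rose and 9 fell in WT, and 3 rose and 5 fell with the knockout label. Nos1, the neuronal nitric oxide synthase held by PSD-95, fell by 0.27 and 0.33 (limma adjusted p = 0.00652 and 0.0102), and Psd3, an exchange factor for ARF6, by 0.26 and 0.21 (adjusted p = 0.00105 and 0.0327). Baiap2 (IRSp53, an actin-linked partner of Shank) fell by 0.19 in WT (limma adjusted p = 0.00194), and Lzts1 rose by 0.57 with the knockout label (adjusted p = 0.000975).

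The calcineurin genes had negative values under both labels. Ppp3cb, a catalytic subunit, had 46.1, 47.1, 46.4, 46.2 and 44.0 RPKM in WT controls and 42.7, 44.5, 40.9, 43.6 and 44.2 in WT CSDS. Control 10 was the one control within the CSDS range. The log2 difference was -0.09 (SE 0.03, limma adjusted p = 0.0425), and it passed in 2 of 10 refits, those without control 10 or CSDS 2, with adjusted p up to 0.0915. With the knockout label Ppp3cb had -0.12 and Ppp3ca -0.13 (limma adjusted p = 0.0983 and 0.0931), and both passed without control 10, at 0.0254 and 0.0201. Ppp3ca in WT had -0.09 (-0.095, limma adjusted p = 0.175). Spinophilin (Ppp1r9b) had -0.07 and -0.02 and did not pass.

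Of 15 tested calcineurin regulators and phosphatase 1 genes, 1 rose and 4 fell in WT, and 1 rose and 1 fell with the knockout label. Ppp1r1a, the gene of inhibitor-1 of protein phosphatase 1, rose by 0.55 in WT (SE 0.08, limma adjusted p = 0.00122) and by 0.43 with the knockout label (SE 0.04, limma adjusted p = 0.000362). Ppp1cb, a catalytic subunit of phosphatase 1, fell by 0.22 and 0.28 (limma adjusted p = 0.00428 and 0.00274). The calcineurin regulators Rcan2 and Rcan1 fell in WT by 0.31 and 0.17 (limma adjusted p = 0.0118 and 0.00225).

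Kalrn, the gene of kalirin, an exchange factor that enlarges spines, rose with the knockout label. Its RPKM there was 30.7, 31.0, 31.0, 31.5 and 25.7 in controls 6 to 10 and 34.6, 32.35, 33.4, 34.0 and 35.2 in CSDS 1 to 5. Control 10 stood apart from the other 4 controls, and all CSDS libraries were above all controls. The log2 difference was 0.18 (SE 0.05, limma adjusted p = 0.0466); it passed in 1 of 10 refits without 1 library, the one without control 10, where it was 0.12 (adjusted p = 0.012), and reached an adjusted p of 0.0972 in the others. In WT, Kalrn had 31.1, 26.8, 30.2, 30.1 and 28.0 in controls and 31.7, 31.2, 31.2, 31.5 and 31.4 in CSDS libraries, which did not overlap by a narrow margin, and a log2 difference of 0.10 that did not pass (limma adjusted p = 0.0703). Iqsec1 had -0.03 (-0.0252) in WT and 0.14 with the knockout label, Iqsec2 0.05 and 0.12, and Cyfip2 -0.05 and -0.01, none of which passed. The authors' deposited table lists Iqsec1 as higher with the knockout label (log2 fold change 0.15, false discovery rate 0.0153).

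Among 30 spine actin and small GTPase regulators, 3 rose and 3 fell in WT, and 4 rose and 3 fell with the knockout label. Trio, the close relative of Kalrn, fell by 0.21 in WT (limma adjusted p = 0.0104), as did Srgap3 by 0.19 (adjusted p = 0.00157) and the kinase gene Pak3 by 0.19 (adjusted p = 0.0204), while cofilin (Cfl1) rose by 0.17 (adjusted p = 0.0112). In the libraries labelled knockout the Ras exchange factors Rasgrf1 and Rasgrf2 rose by 0.28 and 0.19 (limma adjusted p = 0.0137 and 0.022), Arhgap44 rose by 0.16 (adjusted p = 0.0265), and Arpc5, a subunit of the actin-branching Arp2/3 complex, fell by 0.15 (adjusted p = 0.02285). None of 7 tested genes of the inhibitory synapse scaffold passed under either label.

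Other measures moved with CSDS in the same libraries. Summed over 7 structural RNAs such as 7SK, RPKM was 94.4 to 301 in WT controls and 52.9 to 85.8 in WT CSDS, and 88.0 to 563 against 55.1 to 84.8 with the knockout label, without overlap; 7 of 7 fell in WT and 4 of 7 with the knockout label. The 12 immediate early genes summed to 84.7 to 112 in WT controls and 68.1 to 82.8 in WT CSDS, and 7 of 11 tested fell; with the knockout label the sums overlapped, at 73.5 to 117 and 64.95 to 79.2, and 3 of 11 fell. All 5 red blood cell genes rose in WT, with sums of 206 to 297 in controls and 558.5 to 2807 after CSDS, and 0 of 5 passed with the knockout label. There, 6 of 8 meningeal fibroblast and 5 of 8 endothelial markers fell (sums of 56.8 to 103 against 34.2 to 61.5, and 76.7 to 88.1 against 64.0 to 69.7), and 4 of 8 interneuron markers rose. Choroid plexus markers summed to between 23.1 and 4889 within the WT controls alone. The 12 pan-neuronal markers summed to 1547 to 1680 in WT controls and 1567 to 1657 in WT CSDS, and to 1512 to 1608 and 1546 to 1608 with the knockout label; 4 of 12 fell in WT and 1 of 12 with the knockout label. Of 6 excitatory projection neuron markers, 2 fell under each label, Neurod2 and Fezf2. Of 8 microglia markers, 3 rose in WT, and 1 fell with the knockout label. The part of these measures in the members' results was not tested.

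The second question was how the genotype labels differed. Among controls, 3 of 32 members passed (limma on all 20 libraries, 18263 genes): Lrrtm4 was higher and Shank1 and Dlgap4 were lower in the libraries labelled knockout. Over all genes 3.95% were called, 2.45% higher and 1.50% lower. For Lrrtm4 the controls labelled knockout had 5.33 to 5.80 RPKM and the WT controls 4.225 to 5.09, a log2 difference of 0.21 (SE 0.05, limma adjusted p = 0.0169) that passed in all 10 refits without 1 library but not when only the control groups entered the model (adjusted p = 0.0647). All 6 dentate granule markers had positive values in the same comparison, with a median of 0.14, and 1 of them, C1ql2, was called higher by 0.44 (limma adjusted p = 0.00868); their part in the Lrrtm4 result was not tested. Shank1, the most abundant Shank, had 48.2, 47.5, 45.0, 47.1 and 45.0 RPKM in WT controls 6 to 10 and 41.4, 39.1, 44.55, 41.5 and 31.6 in the controls labelled knockout. All of the latter lay below all WT controls, and control 10 was the lowest. This gave a log2 difference of -0.24 (SE 0.06, limma adjusted p = 0.0335), with adjusted p up to 0.0848 without WT control 6, 7 or 9 or control 7 labelled knockout; without both control 10 libraries it was -0.17 (adjusted p = 0.0157). Shank1 shares 339 exon bases with 1700008O03Rik on the opposite strand.

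Dlgap4 had 21.1, 19.6, 21.85, 21.1 and 19.0 RPKM in the controls labelled knockout against 21.7 to 22.9 in WT controls, a log2 difference of -0.13 (SE 0.03, limma adjusted p = 0.0431), and passed in 3 of 10 refits without 1 library (adjusted p up to 0.107). The groups did not overlap for Lrrtm4 (higher) and for Shank1 and Nlgn2 (lower), 3 members, against 4.96% of all genes. Of the 32 members 25 (78.1%) had a negative difference, against 46.3% of all genes, and the median was -0.07. Without control 10 labelled knockout, 21 were negative and the median was -0.03. In that library 31 of the 32 members lay below their group mean and 26 were the lowest of the group, with a median deviation of -0.13 on the log2 scale. WT control 10 was low as well, with 25 members below their group mean and a median deviation of -0.05. Without both control 10 libraries, 24 were negative and the median was -0.04. Without WT control 10 alone, 25 were negative and the median was -0.08. When only the control groups entered the model, none of the 3 calls passed. CSDS libraries share no sample with these controls, and there the direction was even, with 16 members positive and 16 negative and a median of 0.00 (0.0008).

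**Figure D4:**
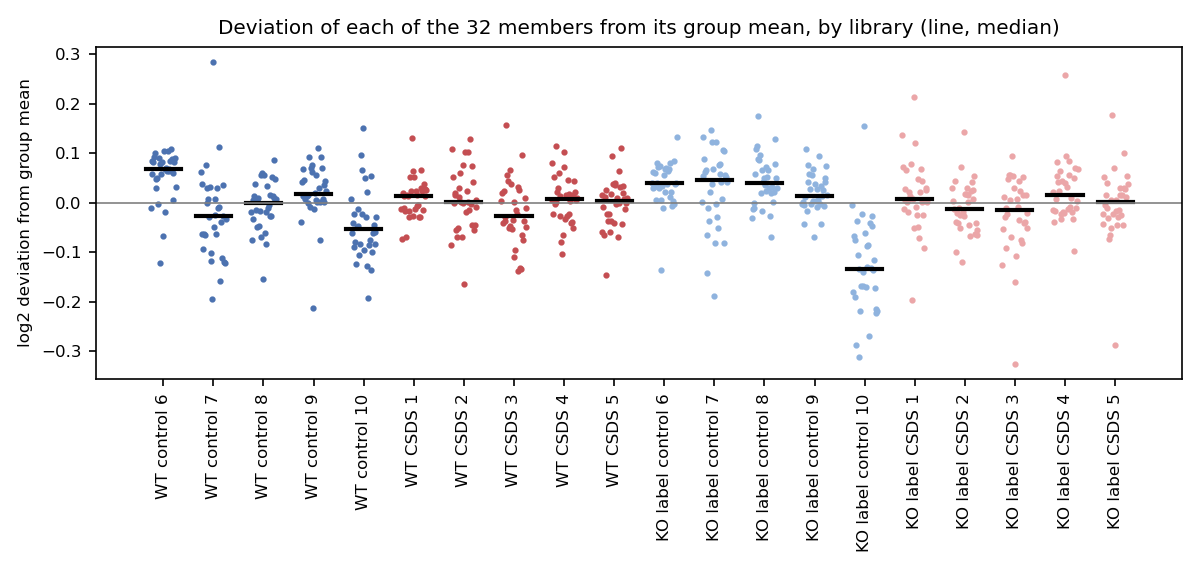
Deviation of each of the 32 members from its group mean on the log2(RPKM + 0.5) scale, by library, with the median as a line. Control 10 labelled knockout has a median of -0.13 and 31 members below 0, while the medians of the other 19 libraries lie between -0.054 and 0.068.

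After CSDS, 0 of 32 members differed between the labels by limma, where 2.24% of all genes were called, and 5 (15.6%, against 15.98% of all genes) had an unadjusted p under 0.05: Camk2a, Homer3 and Nlgn3 with lower values and Lrrtm4 and Kalrn with higher values. Camk2a had 525, 457, 462, 446 and 512 RPKM in WT CSDS 1 to 5 and 429, 421, 442, 421 and 419.5 in the CSDS libraries labelled knockout. Every library of the latter lay below every one of the former, with a log2 difference of -0.17 (SE 0.05, limma adjusted p = 0.108). Among controls Camk2a had 421 to 478 RPKM in WT and 375 to 450.2 with the knockout label, a log2 difference of -0.14 (limma adjusted p = 0.139). Lrrtm4 had a difference of 0.14 after CSDS (limma adjusted p = 0.142). The groups did not overlap for 4 members, Dlgap1 and Kalrn above and Camk2a and Nlgn3 below, against 5.45% of all genes.

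**Figure D5:**
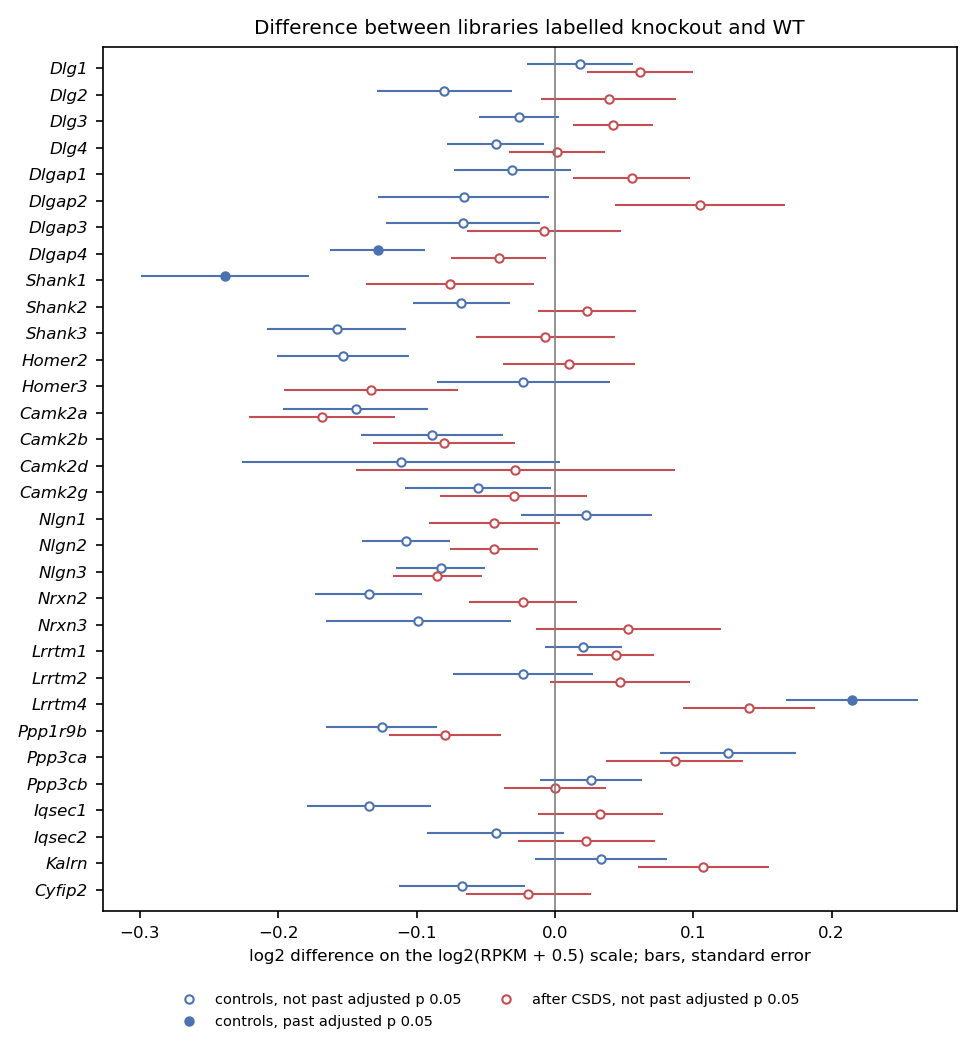
Log2 difference between libraries labelled knockout and WT on the log2(RPKM + 0.5) scale for the 32 members, among controls (blue) and after CSDS (red), with standard errors. Filled points passed adjusted p 0.05: Lrrtm4, Shank1 and Dlgap4 among controls and none after CSDS.

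Whether the CSDS effect itself differed between the labels was tested as an interaction. By limma 0 of 32 members passed, where 0.148% of all genes did, and 3 (9.38%, against 11.45% of all genes) had an unadjusted p under 0.05: Iqsec1 (0.17, SE 0.06, adjusted p = 0.305), Homer2 (0.16, SE 0.07, adjusted p = 0.355) and Shank3. For the members called under 1 label only, such as Shank2, Nrxn2 and Kalrn, a difference between labels was therefore not shown. For Camk2b the estimate was 0.01 (SE 0.07) and for Lrrtm4 -0.07 (SE 0.07). Of the 32 members 25 had a positive interaction estimate and 7 a negative one (21.9%, against 51.8% of all genes). The median was 0.06, against 0.00 for all genes (-0.0043). Without control 10 labelled knockout, 23 were positive and the median was 0.04. Genes within a library are not independent, so these counts of signs are descriptions.

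Of 142 related genes tested, 1 was higher and 6 were lower among controls with the knockout label (4.93%, against 3.95% of all genes). The lower ones were the receptor phosphatase Ptprf by -0.25 (limma adjusted p = 0.0215), the cofilin phosphatase Ssh1 by -0.22 (adjusted p = 0.00883), calsyntenin-3 (Clstn3) by -0.17 (adjusted p = 0.0243), the phosphatase 1 subunit Ppp1cc by -0.15 (adjusted p = 0.00357), Shisa7, a partner of GABA-A receptors, by -0.15 (adjusted p = 0.00781), and Srgap2 by -0.11 (adjusted p = 0.0443). The scaffold gene Lin7c was higher by 0.13 (limma adjusted p = 0.0496). After CSDS the only related gene called was Grip2, a scaffold that binds AMPA receptors, which was higher by 0.24 (limma adjusted p = 0.0269).

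The members were long genes, with a median span of 101.9 kb against 16.6 kb for all genes tested, and a median GC content of 51.8% in the longest transcript against 49.8%. Across the 32 genes, the log2 difference between labels among controls had a Spearman correlation of -0.53 with GC content (-0.181 across 17894 genes), and after CSDS of -0.44 (-0.141). For the WT CSDS effect it was -0.30 (0.085 across 17910 genes). With gene span the correlation was 0.495 (0.027 across all genes) for the label difference after CSDS, 0.084 (-0.083) for that among controls, 0.04 (-0.06) for the CSDS effect in WT and 0.275 (-0.001) for the CSDS effect with the knockout label. Genes within a library share its preparation and are not independent, so these values are descriptions.

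In the authors' deposited table, a separate test whose control means include the libraries of conflicting label, 7 members had a false discovery rate under 0.05 in WT (Camk2b and Lrrtm4 higher, Dlg1, Dlgap4, Shank2, Shank3 and Nrxn2 lower), where 21.0% of 17840 genes did. With the knockout label the authors' deposited table lists 5, Camk2b, Lrrtm4, Iqsec1 and Kalrn higher and Homer3 lower, where 17.1% of genes passed.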

How the data were processed

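Hippocampal poly(A) RNA was sequenced as 75 bp single-end reads from TruSeq V2 libraries, per the labels' protocols. Reads were aligned with STAR to mm10, per the submitters' processing notes; the sources used here name no counting tool or annotation. The authors deposited RPKM values per gene and library in 1 table per genotype label, with log2 fold changes, a likelihood ratio score and p-values with false discovery rates from their own comparison. The likelihood ratio score was not used. Their mean log2 CPM were the same in both tables, which were taken to share 1 scale.

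Groups followed the titles where title and treatment field agreed (20 of 23 libraries). Genes averaging 0.5 RPKM or more were tested with limma 3.58.1 (R 4.3.3) on log2(RPKM + 0.5), two-sided, with Benjamini-Hochberg adjustment over all genes: 10 libraries for each CSDS effect, 20 libraries and 1 mean per group otherwise. Fold changes on this scale understate the change of low genes. All 32 members passed the filter and match GENCODE vM21 coordinates. Depth was estimated from the steps of low RPKM values: 93.9 to 95.1% of those used came out whole within 0.05 reads. The fit was tested on simulated data whose changes were all larger than any difference of a member. It therefore does not show how well changes of the members' size are found. All members are described; from each related list up to 4 genes per comparison are named, those with the largest changes past the threshold, plus Homer1, Arc and Nrsn2. The members and lists were chosen with earlier results of these data known. Alternatives covered pseudocount, filter, scaling, label conflicts, leaving out libraries and the model.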

Additional observations from a re-analysis of the deposited data

Results flagged for a closer look

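Among the 128 sets of 5 values formed by the 32 members and 4 groups, 7 held a library whose gap to the nearest other, divided by the range of the set, exceeded Dixon's 95% critical value of 0.71 for 5 values; chance alone marks about 5% of such sets. In 6 of the 7 the library was control 10 labelled knockout, and in each of these it was the lowest of its group. It had 24.2 RPKM for Dlgap1 where the other 4 controls of that label had 27.95 to 29.0, 6.66 for Dlgap2 (8.27 to 8.93), 19.8 for Shank3 (23.5 to 24.8), 11.85 for Nrxn3 (14.7 to 15.4), 20.2 for Iqsec2 (24.3 to 25.0) and 25.7 for Kalrn (30.7 to 31.5). The other was WT CSDS 3, with 109.5 RPKM for Cyfip2 where the other 4 had 114 to 115.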

How the results depend on the processing

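The 8 members called for CSDS in WT became 1 (Nrxn2) when the library of conflicting label counted as CSDS. They stayed the same 8 when it counted as control, and became 6 after quantile normalization and 4 to 8 when 1 library was left out. The 3 called with the knockout label became 0 with the conflicting libraries as CSDS and 4 with them as control. They became 2 after quantile normalization, 5 in a fit on all 4 groups, 5 without both control 10 libraries, and 0 to 5 without 1 library. Lrrtm4 was not among the 5 of the fit on all 4 groups. The 3 called between labels among controls became 1 with no filter on low values, 6 with the conflicting libraries as control, 0 in a fit on the control groups alone, and 1 to 6 without 1 library. After CSDS the count of 0 became 1 (Camk2a, lower) with the conflicting libraries as CSDS. The cause was not tested. The interaction count was 0 under each alternative run. With the replicate number as a block, 7 members were called among controls, 0 after CSDS and 0 in the interaction. The call rate over all genes under each alternative is not given here. These counts therefore do not show a change particular to the members. Whether equal numbers pair the samples is not settled. Of 10 same-numbered pairs (-0.107 to 0.371), 3 had a correlation of deviations over 0.1, all of them controls: 0.21 for number 6, 0.304 for 8 and 0.371 for 10. The pair numbered 10 is also the pair with a female pattern, and the part of that in its correlation was not tested. In 4 of 10 the best correlation was with the own number. No member that was called changed direction under any alternative. The Nrsn2 difference was 0.15 with the conflicting libraries included, an alternative chosen after seeing the data. Precision was lowest for the least abundant member, Camk2d, with a residual SD of 0.194 on the log2 scale.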

Other observations

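Of the 3 libraries with conflicting labels, titled as controls but given CSDS in their treatment field, each had more members nearer to the control mean than to the CSDS mean of its genotype label: 25 of 32 for WT 9B, 24 of 32 for library 11 and 19 of 32 for library 10B, both of the latter labelled knockout. Camk2b stood at 116, 105 and 112 RPKM in these libraries, in that order, Lrrtm4 at 4.955, 5.70 and 5.68, Shank3 at 27.1, 24.8 and 25.0, and Kalrn at 30.6, 31.25 and 31.9. Homer1 had 12.3, 11.6 and 10.3 RPKM. Its range was 12.1 to 15.0 in WT controls and 6.67 to 8.47 in WT CSDS. With the knockout label it was 10.4 to 12.45 in controls and 6.95 to 7.65 in CSDS libraries. Xist was at 0.025 RPKM in WT 9B and at 1.60 and 1.45 in 11 and 10B, with Ddx3y at 9.66, 9.99 and 8.75.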
